A study of Homo sapiens with 9 samples.

Results

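The mitochondrial ribosomal protein genes were examined in HCT116, an established line of human colorectal cancer cells, after transfection with small interfering RNAs (siRNAs). The genes were chosen by name: every protein-coding gene called MRPL or MRPS plus a number, with an optional final letter. Of 78 annotated genes of this kind, 75 had a row among the 15354 of the table, 47 named MRPL and 28 named MRPS, and MRPL30, MRPL45 and MRPS21 were not analysed here. RNA from 9 cultures was sequenced, in 3 groups of 3 biological replicates: cells that received a non-targeting control siRNA, and cells that received siRNA A or siRNA B, each directed against the long non-coding RNA SNHG5. Per the labels the siRNAs were given by reverse transfection at 25 nM to a line kept in medium with serum, and the study's methods place RNA extraction 36 h later. All groups share the line and the transfection, and no untransfected cells were among the groups. The comparison asks how the genes of the mitochondrial ribosome differ between control cells and cells that received either siRNA.

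Mitochondria carry their own ribosome, which translates the few proteins of the respiratory chain and ATP synthase that mitochondrial DNA encodes. Its ribosomal RNAs come from mitochondrial DNA, while all of its proteins are encoded in the nucleus, made in the cytosol and imported. The large subunit holds the site where peptide bonds form and a tunnel through which the new chain leaves, and the small subunit binds the messenger and decodes it. Some of the proteins descend from bacterial ribosomal proteins and others were added in the mitochondrial lineage, and the names MRPL and MRPS reflect an old assignment to the large and the small subunit that structures have since revised for a few. Of the 75 genes, 49 encode proteins of the large subunit, among them MRPS30 and MRPS18A, and 25 encode proteins of the small subunit. MRPS36 belongs to neither, since its product is now placed in the oxoglutarate dehydrogenase complex. By its place in the ribosome, 44 of the genes encode a protein with a bacterial homolog in the same place and 30 one with no bacterial counterpart there, called specific to mitochondria below.

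SNHG5 itself went against its labels. Its level, in CPM (reads of the gene over those of the library, brought to a common total) after scaling of the libraries by trimmed mean of M values (TMM), was 31.3, 22.1 and 25.9 in the control libraries, 71.5, 58.8 and 67.3 in those labelled siRNA A and 46.2, 50.3 and 46.1 in those labelled siRNA B. It was thus higher, not lower, in every library labelled with an siRNA against it, so that a depletion of SNHG5 is not seen in these RNA data. The study reports that both of its siRNAs lowered SNHG5 in HCT116 cells by quantitative PCR, another measure than the count of all reads of the gene used here. The directions below are those of libraries labelled siRNA A or siRNA B. The libraries held 15566530 to 23277549 reads. The listed markers of colon epithelium were EPCAM, KRT8, KRT18, KRT19, KRT20, CDH1, VIL1, CDX1 and CDX2. Of these 8 had a row and 7 reached the level for testing. The keratins KRT8, KRT18 and KRT19 and EPCAM were abundant, and the levels of the others are not given here. Of the markers of leukocytes, fibroblasts and endothelium only COL1A1 reached the level for testing, with means of 16.7 CPM in control, 11.9 in siRNA A and 9.23 in siRNA B. The group means of CD14, COL3A1 and PDGFRB did not exceed 0.331 CPM, and the part of COL1A1 in the results was not tested. Replicate 2 labelled siRNA B stood apart in the genes examined here, as described below.

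The start sites of these genes carry recurring short sequences, and 7 promoters are shown because their genes lead the comparisons below: those of the 4 largest rises with siRNA A (MRPL50, MRPL36, MRPL20 and MRPS35), of the gene called in opposite directions with the siRNAs (MRPL42) and of the pair that fell most with siRNA A (MRPS6 and MRPS9). Each is 150 bases from the RefSeq promoter table on GRCh38.p14, written 5′ to 3′ on the strand of the gene, with 120 bases before the annotated start and 30 after it. Capitals mark matches on either strand to any of the 4 motifs searched.
MRPL50 (chr9:101398589-101398738, minus strand): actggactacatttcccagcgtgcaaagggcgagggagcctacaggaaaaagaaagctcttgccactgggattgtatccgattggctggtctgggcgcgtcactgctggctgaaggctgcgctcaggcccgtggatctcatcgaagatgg
MRPL36 (chr5:1799808-1799957, minus strand): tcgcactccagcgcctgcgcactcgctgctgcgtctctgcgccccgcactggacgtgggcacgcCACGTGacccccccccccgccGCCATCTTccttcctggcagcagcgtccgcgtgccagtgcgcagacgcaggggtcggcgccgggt
MRPL20 (chr1:1407264-1407413, minus strand): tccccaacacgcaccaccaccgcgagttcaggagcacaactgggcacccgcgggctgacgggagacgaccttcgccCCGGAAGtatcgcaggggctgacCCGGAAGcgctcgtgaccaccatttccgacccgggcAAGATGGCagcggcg
MRPS35 (chr12:27710712-27710861, plus strand): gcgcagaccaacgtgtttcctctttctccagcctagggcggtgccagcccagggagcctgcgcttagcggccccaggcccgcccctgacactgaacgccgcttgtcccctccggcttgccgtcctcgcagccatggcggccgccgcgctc
MRPL42 (chr12:93467394-93467543, plus strand): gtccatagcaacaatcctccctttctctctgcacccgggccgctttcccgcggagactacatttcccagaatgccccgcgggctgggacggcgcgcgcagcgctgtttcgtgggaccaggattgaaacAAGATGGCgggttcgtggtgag
MRPS6 (chr21:34073458-34073607, plus strand): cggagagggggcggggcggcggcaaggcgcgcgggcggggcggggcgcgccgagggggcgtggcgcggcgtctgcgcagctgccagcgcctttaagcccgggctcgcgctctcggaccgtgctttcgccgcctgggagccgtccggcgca
MRPS9 (chr2:105037949-105038098, plus strand): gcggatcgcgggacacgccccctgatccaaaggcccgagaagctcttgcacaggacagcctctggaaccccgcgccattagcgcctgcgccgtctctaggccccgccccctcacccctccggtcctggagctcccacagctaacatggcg

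The 4 motifs were cores bound by transcription factors known from genes of mitochondrial biogenesis and growth: CCGGAAG for ETS factors such as GABPA, AAGATGGC for YY1, GCGCATGC for NRF1 and CACGTG, the E-box of MYC and related factors. None of these letter strings contains another, and both strands were searched over 300 bases, 250 before and 50 after the start. A promoter was in the table for 66 of the 75 genes. The ETS core occurred in 27 of them (40.9%) and in 10.7% of all 27305 promoters of the table. The YY1 core was present in 19 (28.8%) against 3.03% of all promoters. In 14 of these 19 it lay on the strand of the gene just after the start, with its first base between positions 7 and 36 of the transcript, as in MRPL20 and MRPL42 above and in MRPL50, where the match runs past the last base shown. In MRPL36 it lay before the start, on the other strand. The NRF1 core was found in 6 member promoters (9.09%) and in 3.27% of all, and the E-box in 5 (7.58%) and in 7.43% of all. None of MRPS35, which rose, and MRPS6 and MRPS9, which fell, held a match to the 4 strings in the bases shown. Unlike the members, the 27305 promoters were not limited to protein-coding genes or to genes expressed in these cells. These matches are descriptions of sequence, and binding of a factor was not measured here.

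All 75 genes were expressed in the control cells. Their mean control levels ran from 2.33 CPM for MRPL53 to 194 CPM for MRPL3 with a median of 49.7 CPM, and every gene passed the filter for testing, with no fewer than 44 reads in any library. Per kilobase of the canonical transcript, MRPL51, MRPL3 and MRPL20 had the highest control levels, at 122, 113 and 95.7 CPM per kilobase. MRPL3 lies in the large subunit near the site of peptide bond formation, and MRPL20 is the homolog of a bacterial protein needed early in assembly of the large subunit. The lowest control levels per kilobase were those of MRPS17, MRPL53 and MRPS33, at 2.82, 4.7 and 5.38. The counted level per length thus spanned a wide range among genes whose proteins occur together in 1 particle. MRPS17 and MRPL53 overlap another gene on the same strand, and 1 transcript length was used per gene. Both limit these values as measures of mRNA abundance.

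With siRNA A, many of the genes were higher and a few clearly lower. On the TMM scale 29 of the 75 (38.7%) were higher than control and 6 (8.0%) lower at an adjusted p under 0.05 (limma on log2(CPM + 1), adjusted by Benjamini-Hochberg over the 13893 genes tested), where 23.9% of all tested genes were higher and 27.6% lower. The other 40 did not pass. The median log2 fold change of the 75 was 0.28, against −0.02 for all tested genes. All 3 siRNA A libraries lay above all 3 control libraries for 39 genes and below them for 11, together 66.7% of the members, where the groups did not overlap for 59.5% of all tested genes. The split depends on how libraries are scaled. With library totals alone 5 were higher and 20 lower, where 1257 and 6532 of the 13893 tested genes were. The median of the 75 turned to −0.09 while that of all tested genes was −0.34. Upper-quartile scaling gave 23 higher and 10 lower, beside 2720 and 4436 of all tested genes. In RNA from whole cultures, fewer cells that express a gene and less of its RNA per cell cannot be told apart.

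A fit with a replicate block, which takes libraries of the same number as paired, called 35 genes higher and 11 lower. Whether the numbers pair samples was not settled. Without control replicate 2 the count of higher genes was 19. Without replicate 2 labelled siRNA B, which enters through the common estimate of spread, the genes lower with siRNA A were 10. Counts over all tested genes under these fits are not given here, so these counts are not set against a background. The genes called higher under every alternative setting run were MRPL20, MRPL50, MRPS24, MRPS27 and MRPS35, and those called lower under every one were MRPL2, MRPL35, MRPS6 and MRPS9. Among genes described below, the siRNA A calls of MRPL34, MRPL36, MRPL48, MRPL51, MRPS15, MRPS18B, MRPS28 and MRPS30 were lost with library totals alone and under no other alternative.

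**Figure D1:**
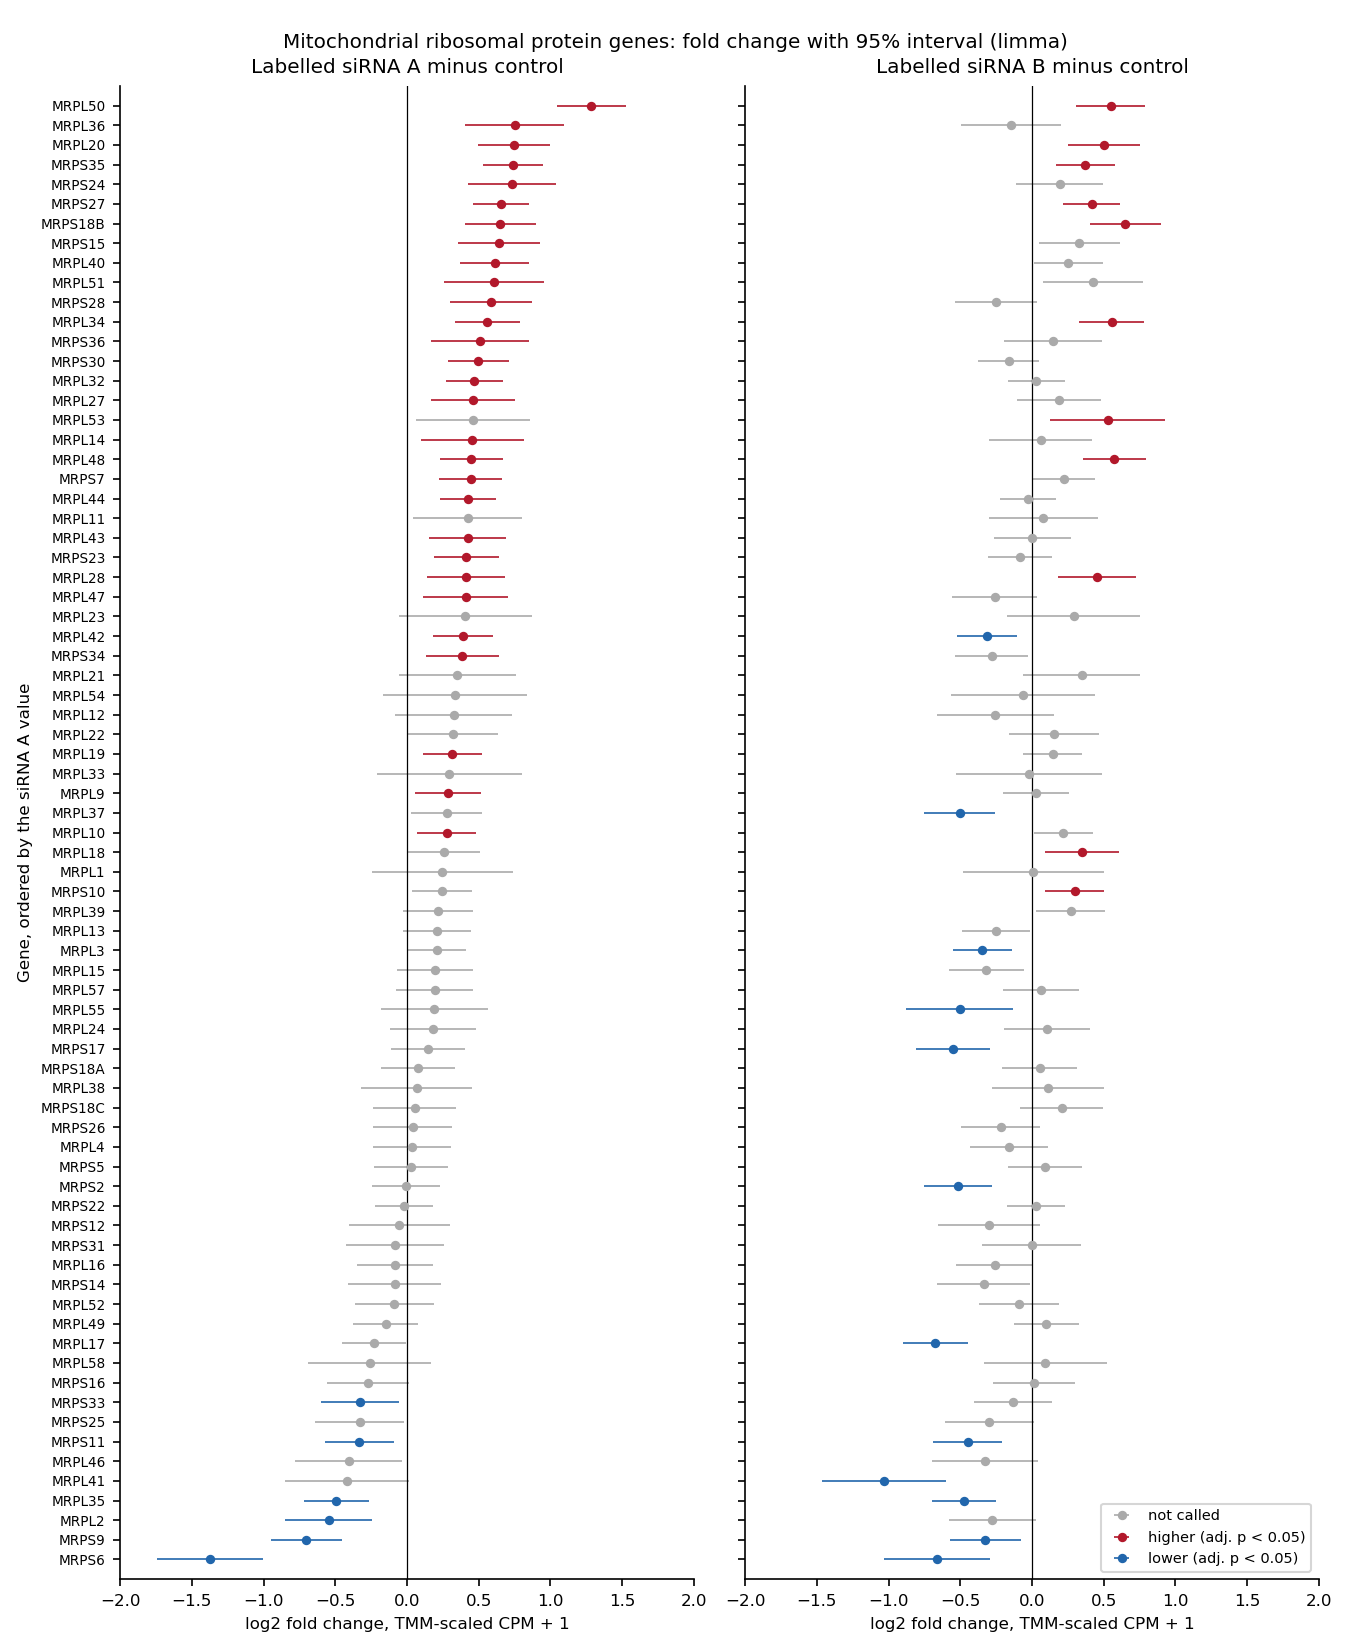
Log2 fold change on the TMM-scaled log2(CPM + 1) scale (x axis) of the 75 mitochondrial ribosomal protein genes (y axis, ordered by the siRNA A value) for libraries labelled siRNA A (left) and siRNA B (right) against control, 3 libraries each, with 95% intervals from limma and colours for the call. With siRNA A 29 genes were higher and 6 lower, and with siRNA B 11 were higher and 12 lower. With library totals alone these counts were 5 and 20, and 4 and 26. Of the 13893 tested genes 1257 were then higher and 6532 lower with siRNA A, and 958 and 4127 with siRNA B.

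Both subunits held genes that rose with siRNA A. Of 49 genes of the large subunit 19 rose and 2 fell, with a median log2 fold change of 0.30, and of 25 genes of the small subunit 9 rose and 4 fell, with a median of 0.04 that turned to −0.04 with upper-quartile scaling. The difference between the subunits was not tested. By this class, 15 of 44 genes with a bacterial homolog rose and 5 fell with a median of 0.25, and 13 of 30 specific to mitochondria rose and 1 fell with a median of 0.31, where 23.9% of all tested genes rose and 27.6% fell. These counts turned to 2 and 11, and to 3 and 9, with library totals alone, where 1257 of the 13893 tested genes rose and 6532 fell. The medians turned to −0.11 and −0.05. With library totals alone the medians of both subunits were below 0, at −0.05 and −0.32, where that of all tested genes was −0.34.

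MRPL50 had the largest rise (ENSG00000136897.6, chromosome 9, 104149915 to 104160900, minus strand on GRCh37). This gene encodes a protein of the large subunit that bacteria lack. Its level was 23.6, 19.9 and 20.9 in the control libraries, 57.3, 54.8 and 49.2 in those labelled siRNA A and 33.7, 29.2 and 32.6 in those labelled siRNA B, so that the 3 groups did not overlap and siRNA A stood highest. The log2 fold change against control was 1.29 ± 0.11 (SE), adjusted p = 6.37e-06 for siRNA A, a 2.44-fold rise, and 0.55 ± 0.11 (SE), adjusted p = 0.00271 for siRNA B. MRPL50 overlaps no other annotated gene.

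MRPL36, the homolog of a very small bacterial protein of the large subunit, was higher in siRNA A alone (ENSG00000171421.7, chromosome 5, 1798499 to 1801480, minus strand). Levels were 22.4, 19.2 and 18.3 in the control libraries, 37.1, 39.2 and 27.3 in those labelled siRNA A and 20.7, 14.8 and 18.5 in those labelled siRNA B. The siRNA A libraries all exceeded the rest, and those of control and siRNA B overlapped. Its log2 fold change was 0.75 ± 0.16 (SE), adjusted p = 0.00215 with siRNA A and −0.15 ± 0.16 (SE), adjusted p = 0.515 with siRNA B, and the direct difference between the siRNAs was 0.90 ± 0.16 (SE), adjusted p = 0.00126. MRPL20 rose with both, by 0.75 (adjusted p = 0.000278) and 0.50 (adjusted p = 0.00582) on the log2 scale, from 74.3, 59.3 and 67.3 CPM in control to 124, 117 and 98.1 in siRNA A and 91.6, 95.8 and 97.2 in siRNA B.

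In the small subunit MRPS35, MRPS24, MRPS27, MRPS18B and MRPS15 led the rises with siRNA A. MRPS35 and MRPS27 are specific to mitochondria, MRPS27 being a protein with the pentatricopeptide repeats of RNA-binding proteins, and MRPS24 is the mitochondrial homolog of a bacterial protein at the entry of the messenger. MRPS27 (ENSG00000113048.11, chromosome 5, 71510780 to 71617544, minus strand) measured 128, 143 and 138 in the control libraries, 202, 221 and 223 in those labelled siRNA A and 181, 189 and 177 in those labelled siRNA B. Control libraries were lowest, siRNA B libraries between and siRNA A libraries highest, with no overlap among the 3 groups. Its log2 fold change was 0.66 ± 0.091 (SE), adjusted p = 0.000139 for siRNA A and 0.42 ± 0.091 (SE), adjusted p = 0.00446 for siRNA B. MRPS35 stood at 99.7, 82.6 and 91.1 in the control libraries, 154, 153 and 150.5 in those labelled siRNA A and 119, 113 and 123 in those labelled siRNA B, the same order of groups, with 0.74 (adjusted p = 8.60e-05) and 0.37 (adjusted p = 0.0105). For MRPS24 the values were 38.7, 31.9 and 32.2 in the control libraries, 62.4, 64 and 47.4 in those labelled siRNA A and 41.4, 34 and 42.6 in those labelled siRNA B, at 0.73 (adjusted p = 0.0011) for siRNA A against 0.19 (adjusted p = 0.314) for siRNA B, a direct difference of 0.54 (adjusted p = 0.0105). MRPS15, homolog of a bacterial protein that binds ribosomal RNA early in assembly, gave 0.64 (adjusted p = 0.00167) with siRNA A and 0.33 (adjusted p = 0.0699) with siRNA B.

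The genes that fell with siRNA A were MRPS6, MRPS9, MRPL2, MRPL35, MRPS11 and MRPS33. MRPS6 (ENSG00000243927.1, chromosome 21, 35445524 to 35515334, plus strand), whose bacterial homolog sits at the edge of the platform of the small subunit, had the largest change of all 75. Its levels were 34.4, 25.5 and 26.7 in the control libraries, 11.3, 9.6 and 10.4 in those labelled siRNA A and 19.1, 13.4 and 21.6 in those labelled siRNA B. All siRNA A libraries were below all siRNA B libraries, and these below all control libraries. The log2 fold change was −1.37 ± 0.17 (SE), adjusted p = 6.87e-05 with siRNA A, to 0.386 of control, and −0.66 ± 0.17 (SE), adjusted p = 0.0107 with siRNA B. SLC5A3, which encodes a myo-inositol transporter, lies on the same strand within this gene, so that reads could have been split between them. The row of SLC5A3 was lower too, at −0.55 (adjusted p = 0.048) with siRNA A and −0.85 (adjusted p = 0.0103) with siRNA B.

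MRPS9 (ENSG00000135972.4, chromosome 2, 105654527 to 105716418, plus strand), homolog of a bacterial protein whose tail reaches the tRNA bound in the ribosome, measured 56, 45 and 54.4 in the control libraries, 33.8, 29.1 and 31.3 in those labelled siRNA A and 42.3, 37.8 and 43 in those labelled siRNA B. Again the groups did not overlap and siRNA A was lowest. It fell with siRNA A by 0.70 on the log2 scale (adjusted p = 0.00038) and with siRNA B by 0.32 (adjusted p = 0.0442). The siRNA A call was lost under none of the alternatives and the siRNA B call under 8, which were the fit without a variance trend and 7 that left out 1 library (any siRNA B library, replicates 1 and 3 of control and replicates 1 and 3 of siRNA A). MRPL35 fell with both: its values were 49.3, 53.6 and 53.1 in the control libraries, 35.6, 33.4 and 41.4 in those labelled siRNA A and 36.8, 38.2 and 36.6 in those labelled siRNA B, with −0.49 (adjusted p = 0.00201) for siRNA A and −0.47 (adjusted p = 0.00449) for siRNA B. The direct difference between the siRNAs was −0.019, with a 95% interval from −0.24 to 0.21. MRPL2, whose bacterial counterpart helps form the peptidyl transferase centre, was −0.55 (adjusted p = 0.00656) with siRNA A and −0.28 (adjusted p = 0.147) with siRNA B. MRPS33 gave −0.33 (adjusted p = 0.0444) with siRNA A, although its control and siRNA A libraries overlapped by a narrow margin, the lowest control value being 20.2 and the highest siRNA A value 20.4 CPM. This call was lost under 10 of the 23 alternatives, among them DESeq2 and 6 that left out 1 library (control replicates 1 and 3, siRNA A replicates 2 and 3 or siRNA B replicates 1 and 3).

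MRPS11, homolog of a bacterial platform protein, has its start 62 bases from that of MRPL46 on chromosome 15, the genes running in opposite directions. MRPS11 measured 35.4, 35.1 and 34.9 in the control libraries, 32.3, 26.5 and 24.8 in those labelled siRNA A and 25.7, 24.7 and 26 in those labelled siRNA B. Its siRNA libraries were all below its tight control values, with −0.33 (adjusted p = 0.0258) for siRNA A and −0.45 (adjusted p = 0.00913) for siRNA B. The siRNA A call was lost under 6 alternatives, removal of the length trend and leaving out any control library or siRNA A replicate 2 or 3, and the siRNA B call under none. The neighbour MRPL46 was at −0.40 (adjusted p = 0.0657) and −0.33 (adjusted p = 0.161), neither past the threshold.

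**Figure D2:**
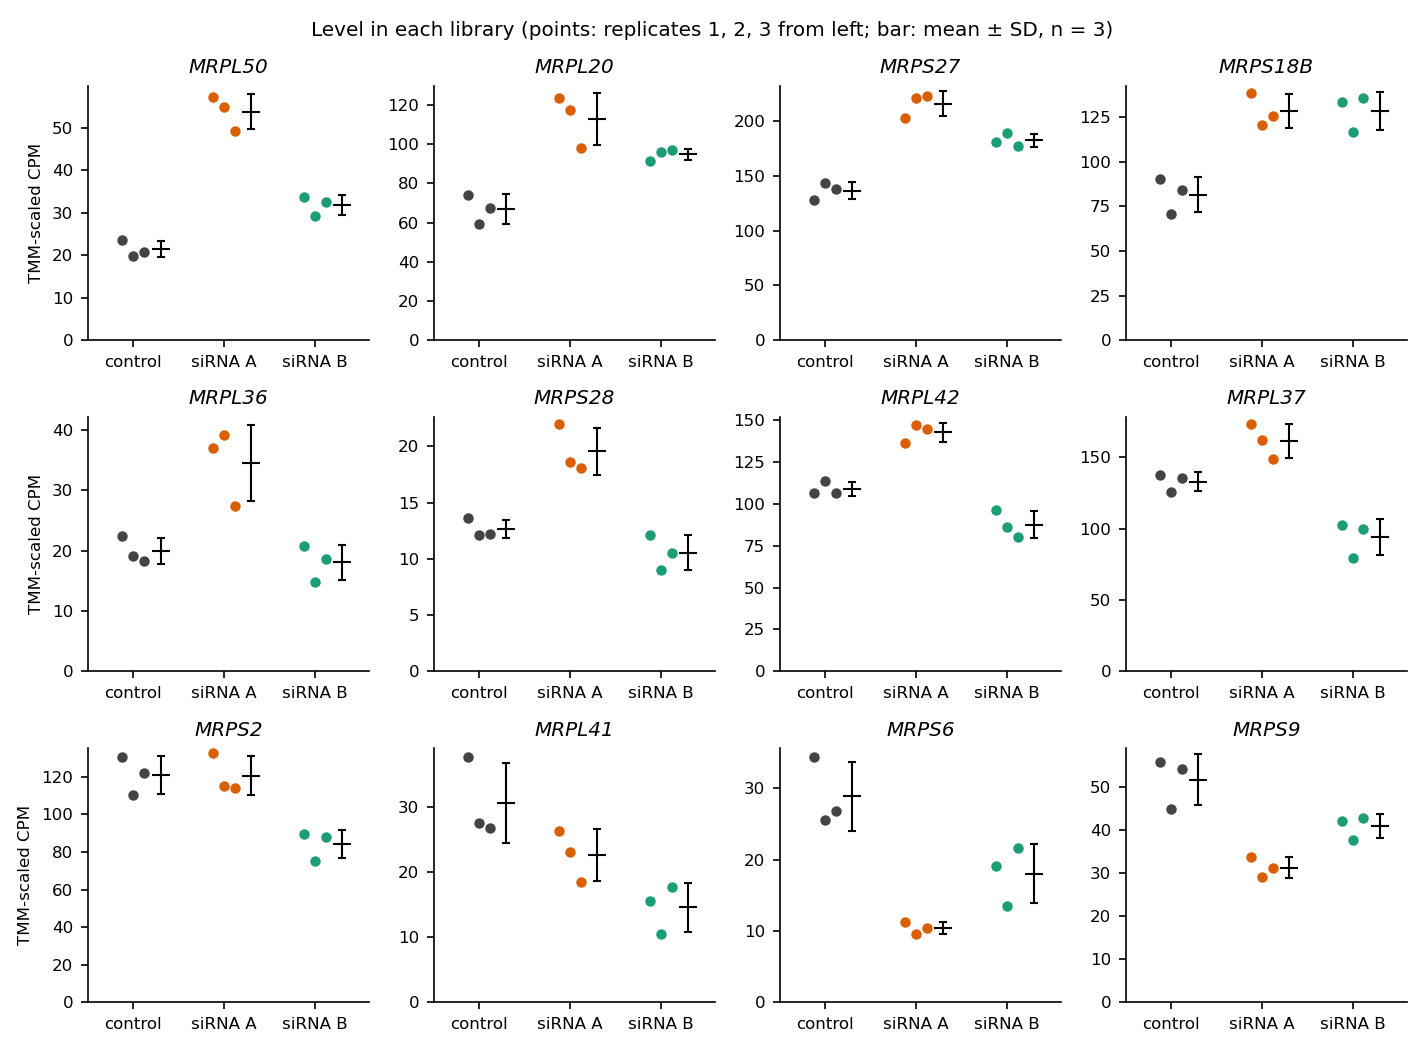
TMM-scaled CPM (y axis, from 0) of 12 genes in each library (points, replicates 1 to 3 from left) with the mean ± SD of each group (n = 3), for control and for libraries labelled siRNA A and siRNA B. MRPL50, MRPL20 and MRPS27 were above control in both siRNA groups, MRPS6 and MRPS9 below it in both, and MRPL42 above it in siRNA A and below it in siRNA B.

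With siRNA B the genes moved both ways in about equal number. On the TMM scale 11 of 75 (14.7%) were higher than control and 12 (16.0%) lower, beside 15.6% and 18.3% of all tested genes, so the shares called were close to the background. The median log2 fold change was 0.01, and it turned to −0.20 with library totals alone, beside −0.18 for all tested genes. Under that scaling 4 of the 75 were higher and 26 lower, where 958 and 4127 of the 13893 tested genes were. The siRNA B libraries all lay above the control libraries for 16 genes and all below for 19, together 46.7%, against 47.6% of all tested genes. The large subunit had 7 rises and 7 falls among 49 genes, and the small subunit 4 rises and 5 falls among 25. Without control replicate 2 the higher genes were 6, and without replicate 2 labelled siRNA B they were 13, with 10 lower. Counts over all tested genes without these libraries are not given here. Called higher under every alternative were MRPL34, MRPL48, MRPL50 and MRPS18B, and lower under every one MRPL17, MRPL35, MRPL37, MRPL41, MRPS2, MRPS6, MRPS11 and MRPS17. The siRNA B calls of MRPL20, MRPS27 and MRPS35, given above, were lost with library totals alone, and that of MRPS35 also without control replicate 2.

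MRPS18B (ENSG00000204568.6, chromosome 6, 30585617 to 30594172, plus strand) had the largest rise with siRNA B. Together with MRPS18A and MRPS18C it descends from the gene of 1 bacterial protein, and each of the 3 occupies a different place in the ribosome, MRPS18A in the large subunit and the others in the small. MRPS18C holds the place of the bacterial protein, and MRPS18A and MRPS18B hold places without a bacterial counterpart, for which they are counted here as specific to mitochondria. MRPS18B measured 90.1, 70.5 and 84.3 in the control libraries, 139, 121 and 126 in those labelled siRNA A and 133, 116 and 136 in those labelled siRNA B. Both siRNA groups were above control and overlapped each other, with 0.65 ± 0.11 (SE), adjusted p = 0.000647 for siRNA A and 0.65 ± 0.11 (SE), adjusted p = 0.00124 for siRNA B. Its paralogs did not pass: MRPS18A gave 0.076 (adjusted p = 0.618) and 0.053 (adjusted p = 0.763), and MRPS18C 0.053 (adjusted p = 0.757) and 0.21 (adjusted p = 0.249), for siRNA A and siRNA B in turn. Whether the paralogs differed from MRPS18B in their change was not tested.

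Other rises with siRNA B were led by MRPL48, MRPL34, MRPL50 and MRPL53. MRPL34, homolog of a very small basic bacterial protein, measured 28.1, 26.2 and 29.7 in the control libraries, 45.5, 42.2 and 37.7 in those labelled siRNA A and 40.5, 43.7 and 40.8 in those labelled siRNA B. The siRNA groups overlapped each other and lay above control, with 0.56 (adjusted p = 0.000937) for siRNA A and 0.56 (adjusted p = 0.00179) for siRNA B. MRPL48, a mitochondria-specific protein, gave 0.45 (adjusted p = 0.00289) and 0.57 (adjusted p = 0.00119), and MRPL28 0.41 (adjusted p = 0.0158) and 0.46 (adjusted p = 0.0147). Both calls of MRPL28 were lost with library totals alone and without control replicate 2, and that with siRNA A also without siRNA A replicate 1. MRPL53 gave 0.53 (adjusted p = 0.0425) with siRNA B and 0.46 (adjusted p = 0.053) with siRNA A, and measured 2.55, 1.91 and 2.53 CPM in control and 2.82, 3.49 and 5.39 in siRNA B. Its siRNA B call was lost under 8 of the 23 alternatives, among them leaving out any control library, and its siRNA A value passed under 10, among them the replicate block (adjusted p = 0.0294). Its siRNA B values were uneven, replicate 3 being the highest, and its level rested on the fewest reads of all 75 genes.

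MRPL41 (ENSG00000182154.7, chromosome 9, 140446331 to 140447007, plus strand) had the largest fall with siRNA B. The protein is specific to mitochondria and has also been described in p53-dependent growth arrest and apoptosis. Its values were 37.6, 27.4 and 26.6 in the control libraries, 26.3, 23.1 and 18.4 in those labelled siRNA A and 15.5, 10.5 and 17.7 in those labelled siRNA B. Control libraries were highest, and all 3 siRNA B libraries were below every siRNA A library. The log2 fold change was −1.03 ± 0.20 (SE), adjusted p = 0.00214 with siRNA B, to 0.489 of control. With siRNA A it was −0.42 ± 0.20 (SE), adjusted p = 0.0976, which did not pass. The siRNA A value passed under 6 of the 23 alternatives, among them the replicate block (adjusted p = 0.0404), removal of the length trend and library totals alone. MRPL17 fell with siRNA B, from 66.9, 58.2 and 62.5 CPM in control to 40.6, 35.2 and 40.7 in siRNA B (−0.67 (adjusted p = 0.000528)). It gave −0.23 (adjusted p = 0.0793) with siRNA A, and passed there under 5 alternatives. These included the replicate block (adjusted p of 0.05, just under the threshold), library totals alone and upper-quartile scaling.

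MRPS2 and MRPL37 fell with siRNA B and were lower there than with siRNA A. MRPS2, homolog of a bacterial protein that joins the small subunit late, measured 130.4, 110.0 and 122 in the control libraries, 132, 115 and 114 in those labelled siRNA A and 89.3, 75.4 and 87.8 in those labelled siRNA B. Control and siRNA A libraries overlapped, and all siRNA B libraries were lower, with −0.52 ± 0.11 (SE), adjusted p = 0.00372 for siRNA B and −0.0041 ± 0.11 (SE), adjusted p = 0.979 for siRNA A, and siRNA A exceeded siRNA B by 0.51 (adjusted p = 0.00366). MRPL37, a mitochondria-specific protein, measured 138, 126 and 135 in the control libraries, 173, 162 and 149 in those labelled siRNA A and 103, 79.7 and 99.6 in those labelled siRNA B. Here the siRNA A libraries were highest and the siRNA B libraries lowest, with −0.50 (adjusted p = 0.00542) for siRNA B and 0.28 (adjusted p = 0.0588) for siRNA A. The siRNA A value of MRPL37 passed under 9 alternatives, among them the replicate block (adjusted p = 0.0321), DESeq2 on recovered reads and removal of the GC or the length trend. MRPS17 (−0.55 (adjusted p = 0.00419)) fell with siRNA B as well, from 5.06, 4.95 and 5.07 to 3.13, 2.91 and 3.33 CPM. MRPL55 gave −0.51 (adjusted p = 0.0383), a call lost under 9 alternatives, among them removal of the GC trend, no filter on low values and leaving out any control or siRNA B library.

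The comparisons with control share the same 3 control libraries, so calls in both are a description. Of the 75 members 8 were higher with both siRNAs and 4 lower with both, where 10.2% and 11.7% of all tested genes were. With the replicate block these counts were 13 and 7, and 4 genes were called in opposite directions. Counts over all tested genes under the block are not given here. The block groups the siRNA B libraries by number too, although their deviations did not steadily follow those of control (r 0.17, 0.44 and −0.39). Other settings without the block also changed the count of genes called in opposite directions. It was 3 with DESeq2 on recovered reads, 2 with DESeq2 size factors, 4 with the length trend removed and 0 with library totals alone. In the planned limma fit a single gene, MRPL42 (ENSG00000198015.7, chromosome 12, 93861290 to 93909990, plus strand), was so called, as were 1.77% of all tested genes. Its product is specific to mitochondria. It measured 106, 113 and 106 in the control libraries, 136, 147 and 144 in those labelled siRNA A and 96.1, 86.1 and 80.04 in those labelled siRNA B, so that siRNA A lay above and siRNA B below control without overlap. The log2 fold change was 0.39 ± 0.096 (SE), adjusted p = 0.00529 with siRNA A and −0.31 ± 0.096 (SE), adjusted p = 0.0252 with siRNA B, and it was no longer called in both without control replicate 2, without siRNA B replicate 3, with the GC trend removed (siRNA A 0.24, adjusted p = 0.0556) or with library totals alone, where the siRNA A value was 0.02 while siRNA B stayed lower.

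The siRNAs were then compared directly. Of the 75 genes, 24 (32.0%) were higher in siRNA A than in siRNA B and 2 (2.67%) lower, beside 17.6% and 19.5% of all tested genes. The median log2 difference was 0.24, against −0.01 for all tested genes, and 0.08 with library totals alone. Under that scaling 13 of the 75 were higher and 5 lower, where 1415 and 3750 of the 13893 tested genes were. Replicate 2 labelled siRNA B had only 24 of the 75 genes above the control mean, whereas the other siRNA B libraries had 44 and 45. Without it 20 genes were higher in siRNA A and 5 lower, and the median difference was 0.10. Counts over all tested genes without it are not given here. Control replicate 1 lay on the other side of its group, with 66 of 75 genes above the control mean against 11 and 32 in the others.

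**Figure D3:**
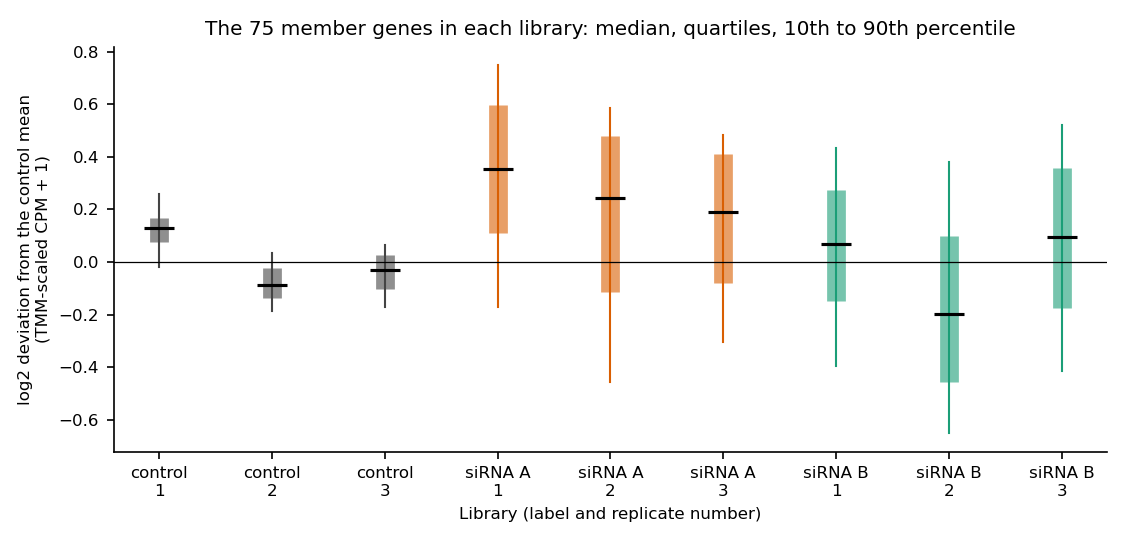
Log2 deviation from the control mean on the TMM scale (y axis) of the 75 genes in each library (x axis), as median, quartiles and 10th to 90th percentile over genes. The medians were 0.35, 0.24 and 0.19 in the siRNA A libraries and 0.07, −0.20 and 0.10 in the siRNA B libraries, replicate 2 of siRNA B being the lowest; with library totals alone the median siRNA A change was −0.09.

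MRPL36 had the largest direct difference, given above, followed by MRPS28, MRPL37, MRPL50 and MRPL42. MRPS28, now known as the mitochondrial relative of a bacterial messenger-binding protein of the small subunit, measured 13.6, 12.2 and 12.2 in the control libraries, 22, 18.6 and 18.1 in those labelled siRNA A and 12.1, 8.97 and 10.6 in those labelled siRNA B. Its siRNA A libraries were highest and its siRNA B libraries just below control, with 0.59 ± 0.13 (SE), adjusted p = 0.00314 for siRNA A, −0.25 ± 0.13 (SE), adjusted p = 0.167 for siRNA B and 0.84 ± 0.13 (SE), adjusted p = 0.00061 between them. MRPL37 differed by 0.78 (adjusted p = 0.000377), MRPL50 by 0.74 (adjusted p = 0.000428) and MRPL42 by 0.70 (adjusted p = 0.000249). The pair lower in siRNA A than in siRNA B were MRPS6, at −0.71 (adjusted p = 0.0071), and MRPS9, at −0.38 (adjusted p = 0.0218), which was lost without replicates 2 or 3 of siRNA A and replicates 1 or 3 of siRNA B. Higher calls held under every alternative for 13 genes: MRPL3, MRPL36, MRPL37, MRPL42, MRPL47, MRPL50, MRPL55, MRPS2, MRPS17, MRPS23, MRPS28, MRPS30 and MRPS34.

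Members with roles beyond the structural core gave a mixed picture. MRPL12, the homolog of the bacterial stalk protein that recruits translation factors and also a partner of the mitochondrial RNA polymerase, measured 16.5, 13.4 and 10.4 in the control libraries, 20.7, 17.4 and 13.2 in those labelled siRNA A and 12, 9.36 and 11.5 in those labelled siRNA B. Neither siRNA differed from control past the threshold (0.33 (adjusted p = 0.163) and −0.26 (adjusted p = 0.316)), while siRNA A was higher than siRNA B by 0.58 (adjusted p = 0.0288), a call lost under 5 alternatives, both library totals and upper-quartile scaling and 3 that left out 1 library (siRNA A replicates 1 and 2 or siRNA B replicate 2). MRPS12, at the decoding centre, gave −0.052 (adjusted p = 0.806) and −0.30 (adjusted p = 0.178). MRPL23, beside the exit of the nascent chain, gave 0.41 (adjusted p = 0.129) and 0.29 (adjusted p = 0.32), and its control values were spread from 30.0 to 48.1 CPM. Its siRNA A value passed under 6 alternatives, among them the replicate block (adjusted p = 0.012), removal of the GC trend and leaving out control replicate 1. MRPL3 did not pass with siRNA A (0.21 (adjusted p = 0.085)) and fell with siRNA B (−0.35 (adjusted p = 0.0147)), from 181, 187 and 213 to 149, 159 and 147 CPM, a call lost without replicate 3 of control or of siRNA B.

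MRPS30, a large-subunit protein despite its name and also described in apoptosis, rose with siRNA A from 106, 116 and 112 to 151, 168 and 154 CPM (0.50 (adjusted p = 0.00135)) and stood at 97, 109 and 92.2 with siRNA B (−0.16 (adjusted p = 0.221)). MRPL58, a peptidyl-tRNA hydrolase that frees stalled ribosomes, did not pass in either comparison, with −0.26 (adjusted p = 0.284) and 0.094 (adjusted p = 0.741). MRPS36, the gene whose product is no ribosomal protein in current structures, rose with siRNA A (0.51 (adjusted p = 0.0174)) and gave 0.15 (adjusted p = 0.506) with siRNA B. Its siRNA A call was lost with library totals alone, with the GC trend removed and without control replicate 2, control replicate 3 or siRNA A replicate 1. MRPL51, the member most abundant per kilobase, rose with siRNA A (0.61 (adjusted p = 0.0075)) and narrowly missed with siRNA B (0.43 (adjusted p = 0.0573)).

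Annotated overlaps limit some of these values. Of the 75 genes 47 overlap another gene, 22 of them on the same strand, and the use of strand in counting is not given in the sources used here. Called in at least 1 comparison with such an overlap were 31 genes: MRPL2, MRPL3, MRPL9, MRPL12, MRPL13, MRPL14, MRPL19, MRPL20, MRPL28, MRPL34, MRPL37, MRPL40, MRPL42, MRPL43, MRPL44, MRPL47, MRPL48, MRPL51, MRPL53, MRPS2, MRPS6, MRPS7, MRPS9, MRPS11, MRPS17, MRPS18B, MRPS24, MRPS27, MRPS28, MRPS34 and MRPS35. Among the 28 genes that overlap none, 9 rose and 2 fell with siRNA A, with a median log2 fold change of 0.23, and 3 rose and 4 fell with siRNA B, beside the 23.9% and 27.6%, and the 15.6% and 18.3%, of all tested genes given above. With library totals alone 1 rose and 8 fell with each siRNA, and the siRNA A median was −0.13. Of the 13893 tested genes 1257 rose and 6532 fell with siRNA A under that scaling, and 958 and 4127 with siRNA B. Of 24 tested partners of genes called with siRNA A, 4 were called the same way as the gene, 7 the other way and 13 not at all, and of 14 with siRNA B 6, 1 and 7. Among those called the same way was ACTL6A, opposite MRPL47, at 0.56 (adjusted p = 0.000615) with siRNA A. With siRNA B they included PPP1R10, opposite MRPS18B, at 0.36 (adjusted p = 0.036), and PIERCE1, opposite MRPS2, at −0.66 (adjusted p = 0.00544). They also included CYB5RL, opposite MRPL37, at −0.72 (adjusted p = 0.00769), and RN7SL737P, on the strand of MRPL42, at −0.43 (adjusted p = 0.028). CCDC142, on the strand of MRPL53, was 0.45 (adjusted p = 0.0322) and 0.43 (adjusted p = 0.0544). Called the other way, PGAP6, on the strand of MRPL28, was −0.55 (adjusted p = 0.00168) with siRNA A, and KLC4, opposite MRPL2, was 0.54 (adjusted p = 0.0044). MRPS17 shares its strand and region with NIPSNAP2, which did not pass with siRNA B (0.017 (adjusted p = 0.911)).

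Motif matches were set beside the calls as a description. Of the members with a promoter in the table, the YY1 core was present in 12 of 26 that rose with siRNA A, in 0 of 4 that fell and in 7 of 36 that did not pass. The ETS core was present in 10 of the 26, in 1 of the 4 and in 16 of the 36. For siRNA B the YY1 core was found in 5 of 11 that rose, 1 of 11 that fell and 13 of 44 that did not pass, and the ETS core in 5, 1 and 21 of these. The ETS core occurred among genes of each outcome, and the YY1 core in each except the few that fell with siRNA A.

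Other parts of mitochondrial gene expression were followed in lists of genes. Of 5 ribosomal proteins outside the naming rule, DAP3, GADD45GIP1 and PTCD3 rose with siRNA A, by 0.32 (adjusted p = 0.0213), 0.59 (adjusted p = 0.00702) and 0.30 (adjusted p = 0.0138), and 0 passed with siRNA B by limma, by edgeR or by DESeq2, also 0 at an unadjusted p under 0.05. DAP3 is a GTPase of the small subunit, PTCD3 a pentatricopeptide repeat protein there, and GADD45GIP1 a protein of the large subunit. The median of the 5 with siRNA A was 0.32 and turned to −0.04 with library totals alone, where 0 of the 5 passed. Of all tested genes 23.9% rose and 27.6% fell with siRNA A on the TMM scale, and 15.6% and 18.3% with siRNA B. Of 16 translation factors 7 rose and 2 fell with siRNA A, and 5 rose and 1 fell with siRNA B, beside these shares of all tested genes. Their medians were 0.25 and 0.08 and turned to −0.10 and −0.13 with library totals alone. Under that scaling 2 factors rose and 4 fell with siRNA A, where 1257 and 6532 of the 13893 tested genes did. With siRNA B the 5 rises were lost and 2 factors fell, where 958 of the tested genes rose and 4127 fell. LRPPRC, which with SLIRP stabilises mitochondrial messengers, rose with siRNA A (0.70 (adjusted p = 0.000176)) and siRNA B (0.40 (adjusted p = 0.01)). SLIRP was 0.62 (adjusted p = 0.00879) with siRNA A and 0.12 (adjusted p = 0.628) with siRNA B, and the elongation factor TUFM 0.63 (adjusted p = 0.000433) and −0.07 (adjusted p = 0.639). GFM2, which splits the ribosome after termination, fell with both, from 39.2, 52.8 and 43.6 CPM in control to 15.5, 15 and 16.8 in siRNA A and 23.3, 22.6 and 23.4 in siRNA B (−1.45 ± 0.12 (SE), adjusted p = 5.43e-06, and −0.93 ± 0.12 (SE), adjusted p = 0.000175).

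Of 27 genes for assembly of the ribosome and modification of its RNA, 5 rose and 9 fell with siRNA A, and 1 rose and 9 fell with siRNA B, where 27.6% and 18.3% of all tested genes fell. Scaling by library totals alone gave 1 rise and 16 falls with siRNA A, and 1 rise and 14 falls with siRNA B. Of the 13893 tested genes 6532 and 4127 fell under that scaling. Their median log2 fold changes were −0.12 and −0.23, below 0 under each scaling tried. NDUFAB1, the mitochondrial acyl carrier protein and a subunit of complex I that also joins an assembly module of the large subunit, fell from 69.9, 52.6 and 63.8 CPM in control to 20.5, 20.0 and 17.7 with siRNA A and 26.1, 24.9 and 27.1 with siRNA B. This was −1.62 ± 0.12 (SE), adjusted p = 2.82e-06 and −1.21 ± 0.12 (SE), adjusted p = 3.42e-05, with no overlap between control and either siRNA. TRMT61B, a methyltransferase of mitochondrial RNA, gave −1.04 (adjusted p = 0.000188) and −0.85 (adjusted p = 0.00131). TFB1M, which methylates the ribosomal RNA of the small subunit, gave −0.86 (adjusted p = 8.50e-05) and −0.46 (adjusted p = 0.00718). NGRN, required for the ribosomal RNA of the large subunit, rose by 0.84 (adjusted p = 0.00527) and 0.83 (adjusted p = 0.00962).

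Of 15 mitochondrially encoded genes, 7 rose and 0 fell with siRNA A, and 2 rose and 0 fell with siRNA B (0 fell also by edgeR and DESeq2, and 0 at an unadjusted p under 0.05), with median log2 fold changes of 0.56 and 0.35 that stayed above 0 under each scaling tried. The 7 with siRNA A became 1 with library totals alone and 3 with upper-quartile factors, where 1257 and 2720 of the 13893 tested genes rose. Those with siRNA B remained 2 in number. On the TMM scale 23.9% and 15.6% of all tested genes rose with siRNA A and siRNA B. MT-RNR2, the ribosomal RNA of the large subunit, was 0.80 (adjusted p = 0.0232) with siRNA A and 0.31 (adjusted p = 0.394) with siRNA B, and MT-RNR1, that of the small subunit, was 0.58 (adjusted p = 0.12) and −0.44 (adjusted p = 0.283). The messengers MT-ND6 and MT-ND1, for subunits of complex I, passed with both: MT-ND6 at 0.90 (adjusted p = 0.00739) and 0.85 (adjusted p = 0.0155), MT-ND1 at 0.74 (adjusted p = 0.0167) and 0.76 (adjusted p = 0.0223). MT-ND4 gave 0.68 (adjusted p = 0.0483) and 0.61 (adjusted p = 0.0918). RNA was purified with oligo-dT, so these values are of RNA that carries or contains runs of A.

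**Figure D4:**
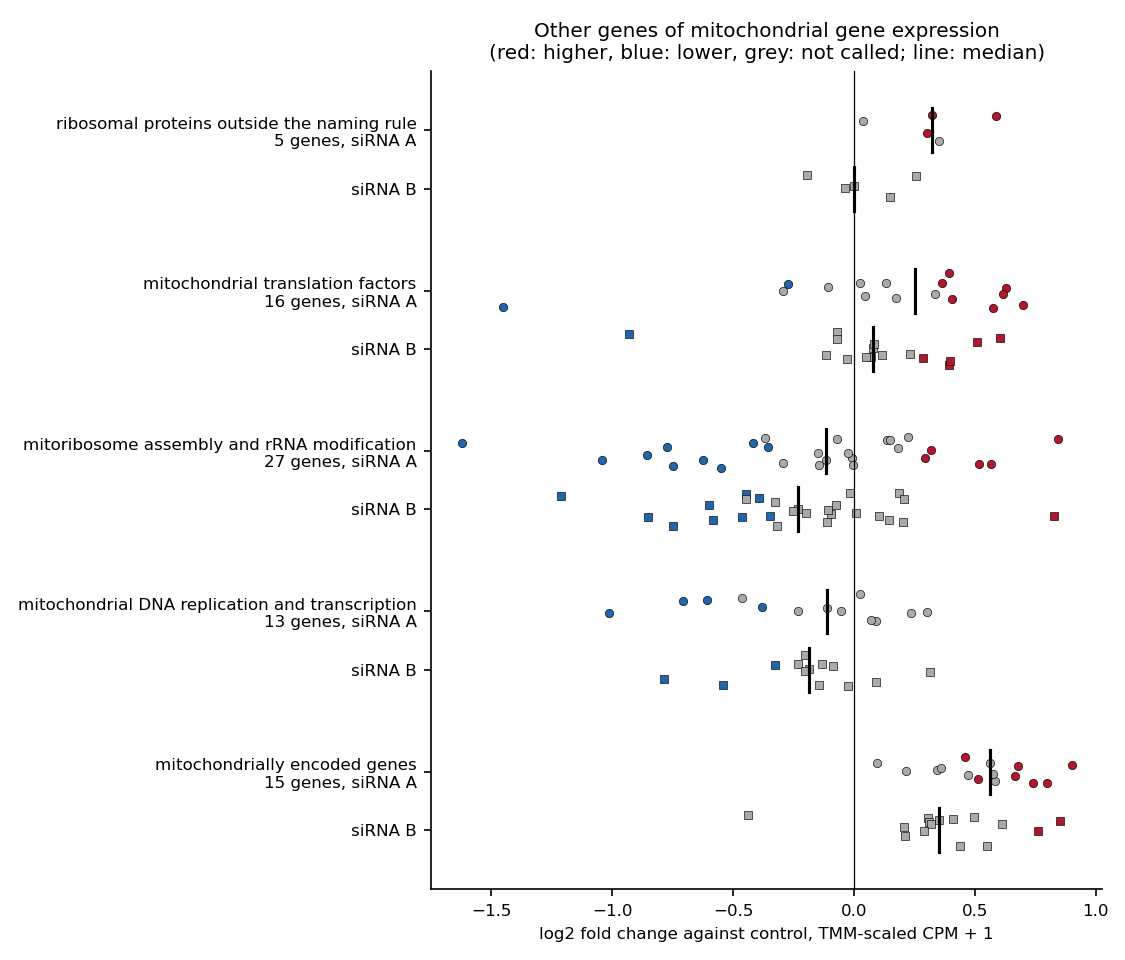
Log2 fold change against control on the TMM scale (x axis) of the genes of 5 lists of mitochondrial gene expression (y axis, circles siRNA A, squares siRNA B, vertical spread random), with calls coloured and the median as a line. Assembly genes had 9 falls with each siRNA (16 and 14 with library totals alone, where 6532 and 4127 of the 13893 tested genes fell). No mitochondrially encoded gene was called lower. The translation factor medians of 0.25 and 0.08 turned to −0.10 and −0.13 with library totals alone, where those of all tested genes were −0.34 and −0.18.

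The cytosolic ribosomal proteins, which build the ribosome of the cytoplasm, were mostly higher. Of 80 such genes 78 rose and 0 fell with siRNA A, and 63 rose and 0 fell with siRNA B, with medians of 0.97 and 0.63 (limma; 0 fell also by edgeR, by DESeq2 and at an unadjusted p under 0.05). With library totals alone 67 and 37 still rose, 1 fell in each comparison, and the medians were 0.60 and 0.42. Of all tested genes 23.9% and 15.6% rose on the TMM scale, and 1257 and 958 of 13893 with library totals alone. The quartiles with siRNA A were 0.84 and 1.09 for the cytosolic and −0.01 and 0.45 for the mitochondrial genes. No test of the difference between the lists was run.

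**Figure D5:**
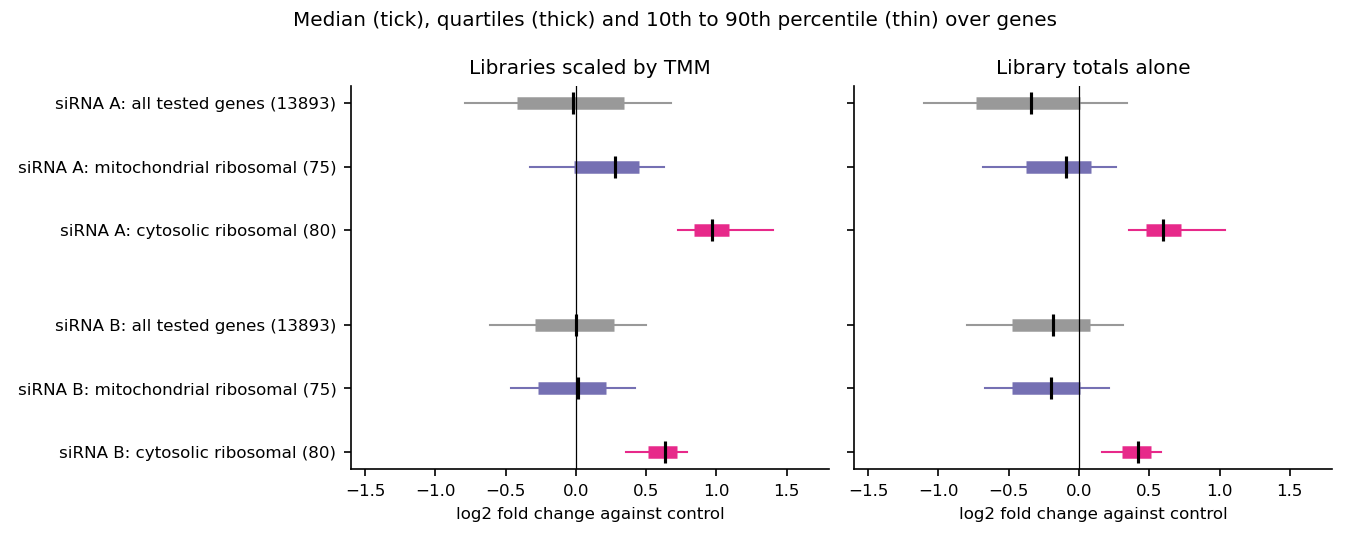
Log2 fold change against control (x axis) for all 13893 tested genes, the 75 mitochondrial and the 80 cytosolic ribosomal protein genes (y axis), as median, quartiles and 10th to 90th percentile, with TMM scaling (left) and library totals alone (right). With siRNA A the mitochondrial median was 0.28 and −0.09 under these scalings, above that of all tested genes (−0.02 and −0.34) and below that of the cytosolic genes (0.97 and 0.60).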

How the data were processed

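The submitters' notes name TopHat2 and HTSeq with GRCh37 (hg19); versions and use of strand are not given in the sources used here. Single-end reads of 50 bases came from RNA purified with oligo-dT. The authors deposited 1 table of CPM values, which are reads of a gene divided by its library's total and brought to 1 common total. Divided by the worth of a single read, the values were whole numbers (100% of them within a tolerance of 1e-06), so reads were recovered as well. Gene identifiers were matched without version to GENCODE on GRCh37 (14871 of 15354, leaving 483 without a match), whose coordinates are given.

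The 13893 genes that reached 1 CPM in 3 or more of 9 libraries were tested with limma 3.58.1 on log2(TMM-scaled CPM + 1), a scale that understates changes of low genes, with a variance trend, 1 mean per group over all 9 libraries and adjusted p under 0.05. TMM factors came from edgeR 4.0.16, in R 4.3.3; plots used Python 3.11.15 with matplotlib 3.10.9. The test had been planned for a CPM table; edgeR and DESeq2 1.42.0 on the recovered reads, other scalings, filters, pseudocounts, trends in GC and length, a replicate block and leaving out each library were alternatives. The fits were tested on simulated data. At 1 CPM a gene had 15.6 to 23.3 reads. No libraries agreed within sampling noise, so all were kept. No molecular identifiers are described.

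The deviations of same-numbered control and siRNA A libraries from their group means correlated across genes at r of 0.65, 0.41 and 0.13. Between control and siRNA B r was 0.17, 0.44 and −0.39, and between the siRNAs 0.20, 0.44 and 0.02. Libraries of unlike number were not compared, so these values do not settle whether the numbers pair samples. The replicate block was run as an alternative on this reading of the data, since no label ties a number to a shared day.

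Members and lists were chosen with earlier results of these data known. Named were, per siRNA against control, the 8 largest rises and falls among genes called, the 5 largest each way between siRNAs, genes called in opposite directions, 12 genes fixed by role, the extremes of level per kilobase, called genes that overlap another, and the 4 largest changes called per list.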

Additional observations from a re-analysis of the deposited data

How the results depend on the processing

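Results were recomputed under 23 alternatives, of which 3 (replicate block with GC or length trend removed, and within the control and siRNA A libraries only) were chosen after the data were seen. With library totals alone, genes higher and lower were 5 and 20 for siRNA A, 4 and 26 for siRNA B and 13 and 5 for siRNA A against siRNA B, and those higher, lower and opposite with both siRNAs were 1, 12 and 0. Of the 13893 tested genes, those higher and lower in these comparisons were then 1257 and 6532, 958 and 4127, and 1415 and 3750. For siRNA A the median of the members exceeded that of all genes by 0.30 with TMM and by 0.25 with library totals. Of the 29 genes higher with siRNA A, 5 were still called with library totals, 26 kept a positive sign and 0 were called lower. With upper-quartile factors the genes lower with siRNA A were 10 and lower against siRNA B 4, and with DESeq2 size factors 2 were called in opposite directions. DESeq2 on recovered reads gave 13 higher with both and 3 opposite. With the length trend removed 19 were lower with siRNA B and 4 opposite. For fits that changed the tool, the trends, the block or the set of libraries, counts over all tested genes are not given in this section.

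The replicate block gave 35 higher and 11 lower for siRNA A, 15 and 17 for siRNA B, 30 and 4 between the siRNAs, and 13 higher, 7 lower and 4 opposite with both siRNAs. This block and its versions over all 9 libraries group siRNA B by number too, whose pairing with control was not shown. Within the control and siRNA A libraries only, the replicate block gave 44 higher and 12 lower. The replicate block with GC trend removed gave 18 higher with siRNA B, 4 lower in siRNA A than in siRNA B, 18 higher with both and 5 opposite, and turned MRPS2 with siRNA A to 0.22 (adjusted p = 0.0359). With the length trend removed instead, the replicate block gave 11 lower with siRNA A, 23 lower with siRNA B, 6 lower in siRNA A than in siRNA B, and 13 higher, 7 lower and 5 opposite with both. The cause of these shifts was not tested.

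Leaving out 1 library in turn gave 19 to 32 higher and 4 to 10 lower with siRNA A, 6 to 13 higher and 9 to 12 lower with siRNA B, and 20 to 25 higher and 1 to 5 lower between the siRNAs. With both siRNAs, 6 to 12 were higher, 2 to 4 lower and 0 to 2 opposite. Genes lower with both were 2 without control replicate 1, control replicate 3 or siRNA A replicate 3. Genes lower in siRNA A than in siRNA B were 1 without siRNA A replicate 2 or 3 or siRNA B replicate 1 or 3. Those opposite were 0 without control replicate 2 or siRNA B replicate 3 and 2 without siRNA A replicate 3 or siRNA B replicate 2. Where a group kept 2 libraries, it was assumed to vary like the others. With 3 libraries a group, the spread between them, and 44 reads for the lowest value, limit the precision of small differences.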

Other observations

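Of 13 genes of mitochondrial DNA replication and transcription 0 rose and 4 fell with siRNA A, and 0 rose and 3 fell with siRNA B by limma, where 27.6% and 18.3% of all tested genes fell. The falls numbered 9 and 6 with library totals alone, where 6532 and 4127 of the 13893 tested genes fell. At an unadjusted p under 0.05, 2 and 1 were higher, edgeR called 0 higher in both comparisons, and DESeq2 called 2 and 0 higher. Their median log2 fold changes were −0.11 and −0.19, below 0 under each scaling tried. MTERF2, a protein that binds mitochondrial DNA, fell with siRNA A from 9.41, 8.82 and 7.99 to 3.72, 3.7 and 4.02 CPM, at −1.01 (adjusted p = 9.86e-05), and gave −0.19 (adjusted p = 0.309) with siRNA B. TOP1MT, the topoisomerase of mitochondria, fell with both, at −0.71 (adjusted p = 0.000282) and −0.79 (adjusted p = 0.000283). TFAM, which packages and transcribes mitochondrial DNA, fell with siRNA A, at −0.61 (adjusted p = 0.00128), and gave −0.14 (adjusted p = 0.38) with siRNA B. TWNK, the replicative helicase, fell with siRNA B, at −0.54 (adjusted p = 0.00956), and gave 0.026 (adjusted p = 0.885) with siRNA A.

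The table also held 5 non-coding genes named after members, described here after their values were seen. MRPS30-DT, transcribed away from MRPS30, measured 1.2, 0.999 and 0.655 in the control libraries, 4.89, 4.38 and 3.91 in those labelled siRNA A and 1.74, 2.65 and 2.59 in those labelled siRNA B. It was higher in every siRNA library than in any control library, at 1.47 (adjusted p = 3.36e-05) and 0.77 (adjusted p = 0.00391), while MRPS30 was 0.50 and −0.16. MRPS35-DT went the other way from MRPS35 with siRNA A, at −0.54 (adjusted p = 0.0235), with a control mean of 1.42 CPM. MRPL20-AS1 and MRPS9-AS1, antisense to members, were 0.41 (adjusted p = 0.0145) and −0.57 (adjusted p = 0.0305) with siRNA A, the direction of MRPL20 and MRPS9. Without a statement on strand, reads of a gene and its antisense partner cannot be told apart. MRPL23-AS1 was below the level for testing.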
